A study of Caenorhabditis elegans with 2 samples.

Results

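The nuclear-encoded respiratory chain genes of Caenorhabditis elegans were examined for peaks of the homeodomain transcription factor UNC-62 at their promoters. The genes were chosen by their symbols alone: a nuclear protein-coding gene was a member if its symbol began with cox, nuo, nduf, ucr, isp, cyc, mev, gas, atp or one of sdha to sdhd, followed by a hyphen. This gave 47 of the 19973 nuclear protein-coding genes of Ensembl release 115. UNC-62 binding was mapped by ChIP-seq, in which DNA bound by a protein is precipitated and sequenced, in whole young adults aged 4 days and labelled as mixed sex. Both biological replicates, the only group of the series, came from strain OP600, which carries the unc119(ed3) allele and the transgene wgIs600, in which unc-62 is fused to TY1, EGFP and FLAG tags and which also carries unc119. The labels name unc-62 as the antibody and eGFP-unc-62 as the target, and no worms without the transgene are among the samples. Since whole worms were used, the peaks come from all tissues together, and binding in few cells cannot be told apart from weak binding in many.

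The respiratory chain sits in the inner mitochondrial membrane. Complexes I and II pass electrons from NADH and succinate to ubiquinone, complex III passes them on to cytochrome c, complex IV passes them to oxygen, and complex V uses the resulting proton gradient to make ATP. Most subunits are encoded in the nucleus, whereas a small core set is encoded by mitochondrial DNA. In the worm, several of these genes are known from mutants with altered lifespan or oxygen sensitivity, among them isp-1, nuo-6, gas-1 and mev-1. UNC-62 belongs to the Meis class, whose members commonly bind DNA together with Pbx-type homeodomain proteins.

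The DNA under 6 of the 8 strongest member peaks is shown first: 4 of the 6 thresholded ones, and the 2 strongest below the threshold, ucr-2.2 and nduf-2.2. The windows of the thresholded members atp-3 and cox-5B are not shown here. Each window holds 101 bases centred on the summit of the pooled-list peak, read 5′ to 3′ on the strand of the gene, from the RefSeq sequence of WBcel235 (ce11). Capitals mark GCGC and GACGC, on either strand, words that were picked after the sequences had been read. The windows are chrIII:12905133-12905233 for cox-5A, chrIII:2786001-2786101 for cox-6B, chrX:8546214-8546314 for sdha-1, chrII:11097481-11097581 for nuo-1, chrX:15173622-15173722 for ucr-2.2 and chrIII:6464207-6464307 for nduf-2.2. Of these genes, sdha-1 lies on the minus strand and the others on the plus strand.
cox-5A: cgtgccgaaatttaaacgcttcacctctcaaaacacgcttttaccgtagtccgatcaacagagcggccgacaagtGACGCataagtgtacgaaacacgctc
cox-6B: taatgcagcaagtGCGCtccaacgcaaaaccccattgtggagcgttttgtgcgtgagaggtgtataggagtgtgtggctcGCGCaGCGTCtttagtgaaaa
sdha-1: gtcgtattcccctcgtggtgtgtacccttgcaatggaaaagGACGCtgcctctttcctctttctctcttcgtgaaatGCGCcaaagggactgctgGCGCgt
nuo-1: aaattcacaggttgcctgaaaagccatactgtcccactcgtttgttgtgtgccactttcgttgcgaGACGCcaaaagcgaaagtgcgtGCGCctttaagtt
ucr-2.2: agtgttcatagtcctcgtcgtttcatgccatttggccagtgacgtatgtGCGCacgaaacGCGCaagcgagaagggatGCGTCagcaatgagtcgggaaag
nduf-2.2: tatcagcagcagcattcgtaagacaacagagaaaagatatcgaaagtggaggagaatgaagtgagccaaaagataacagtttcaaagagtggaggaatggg

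The windows of cox-6B, sdha-1, nuo-1 and ucr-2.2 hold both marked words, that of cox-5A holds GACGC alone and that of nduf-2.2 holds neither. TGACAG, the core word of Meis-class sites, is in none of the 6 windows shown, and it is in the window of atp-3, the second strongest member peak, which is not among them.

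Peaks were read from 4 lists. The thresholded list, filtered by the irreproducible discovery rate between replicates, held 843 peaks, the list called on both alignments together (the pooled list) held 19023, and the relaxed lists of replicates 1 and 2 held 30000 and 28092. The authors' signal value, which gives the strength of a peak, started at 31.2, 8.57, 3.19 and 4.75 in these lists in the same order. The 843 thresholded peaks were exactly the 843 strongest of the pooled list, so at a promoter the threshold acted as a lower limit on pooled signal. The other 3 lists are relaxed and include background regions by design. The read depth behind the lists is unknown.

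Among the 47 respiratory chain genes, 6 (12.8%) had a promoter peak in the thresholded list, against 486 of all 19973 genes (2.43%). A promoter peak is a peak whose summit lies between 1000 bp upstream and 200 bp downstream of the start of any protein-coding transcript. The 6 genes were cox-5A, cox-5B and cox-6B of complex IV, atp-3 of complex V, sdha-1 of complex II and nuo-1 of complex I. In the pooled list 30 members (63.8%) had one, against 33.2% of all genes. In the relaxed list of replicate 1 the count was 30 (63.8%) against 42.9% of all genes, and in that of replicate 2 it was also 30 (63.8%) against 41.8%. A promoter peak was present in both replicate lists, at the same or at different sites of the promoter, at 25 members (53.2%) and at 24.6% of all genes. The exact 95% interval of the share in the thresholded list ran from 4.83 to 25.7% for the members and from 2.2 to 2.63% for the 19926 other genes, and covers counting of genes only. The shares are descriptions without a test, since the members were chosen with results of these data known and neighbouring genes can share a peak.

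**Figure D1:**
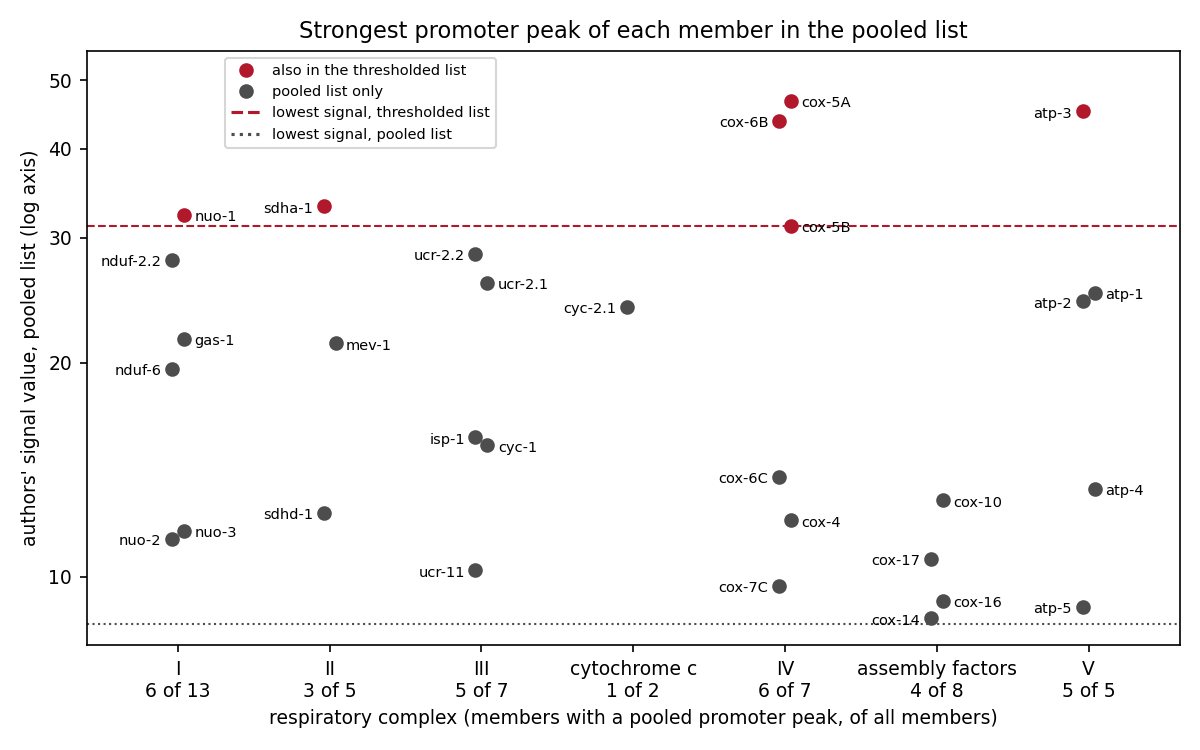
Each point is the strongest promoter peak of 1 member in the pooled list, with the authors' signal value on a log axis and the members grouped by complex along the horizontal axis. Red points are the 6 genes also in the thresholded list, the dashed line marks its lowest signal of 31.2 and the dotted line the lowest of the pooled list, 8.57. All 4 assembly factors with a peak sit below 13.

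Complex I, the NADH dehydrogenase, had 1 of its 13 members in the thresholded list (7.69%, against 2.43% of all genes). This share rests on 1 gene. In the pooled list it had 6 (46.2%, against 33.2% of all genes). The thresholded one was nuo-1, the flavoprotein subunit that receives electrons from NADH, with a summit at -306 bp from its start (II, 11097371 to 11097690, intergenic). Its pooled signal was 32.3, with 8.43 in replicate 1 and 21.4 in replicate 2. The peak ranked 770 in the pooled list and lay between nuo-1 and the divergent ribosomal protein gene rpl-36.A, whose start was almost equally near, with the summit at -327 bp. The complex I genes gas-1 and nduf-2.2 had pooled signals of 21.6 and 27.9. For nduf-2.2 the summit lay at -965 bp, close to the window edge and nearer to the start of dlc-1. The overlapping peaks, with 12.4 in replicate 1 and 14.5 in replicate 2, had summits outside the nduf-2.2 window. Its promoter peaks in the replicate lists were other, weaker ones, with 3.78 at -402 bp and 7.43 at -778 bp. The summit of gas-1 lay at -369 bp with gas-1 as the nearest start. The gas-1 peak had 4.4 in replicate 1 and 16.3 in replicate 2, the lowest ratio between the replicates (0.27) among the members' peaks found in both. Next came nduf-6, nuo-3 and nuo-2 with 19.6, 11.6 and 11.3. The nuo-2 peak, for the NDUFS3-type subunit, overlapped no peak of either replicate list.

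The other 7 members of complex I had no pooled promoter peak. Of these, nduf-5 and nduf-9 had relaxed ones in both replicates, with 4.73 and 7.24 in replicate 1 and 5.9 and 8.76 in replicate 2. The strongest of these lay at different sites in the replicates, at -727 bp in replicate 1 and -320 bp in replicate 2 for nduf-5, and at -854 and -341 bp for nduf-9. The genes nduf-7 and nduf-11 had one in replicate 1 alone, and nuo-4, nuo-5 and nuo-6 had none in any list.

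Complex II, the succinate dehydrogenase, had 1 of 5 members in the thresholded list (20%, against 2.43% of all genes). This share rests on 1 gene. In the pooled list it had 3 (60%, against 33.2% of all genes). Its catalytic flavoprotein is encoded by the paralogs sdha-1 and sdha-2, and these stood apart. The sdha-1 peak (X, 8546104 to 8546423, intergenic) lay at -243 bp with a pooled signal of 33.2, and with 8.71 and 22.9 in replicates 1 and 2. No other gene's promoter window held it. In contrast, sdha-2 had no promoter peak in any of the 4 lists. The membrane anchor gene mev-1 had a pooled signal of 21.3 at -134 bp, with 6.24 and 14.9 in replicates 1 and 2, in a divergent promoter where the start of jmjd-4 was nearer (-125 bp). The second anchor gene, sdhd-1, had 12.3 in the pooled list, and sdhb-1, for the iron-sulfur subunit, had relaxed peaks alone, with 4.43 at -457 bp in replicate 1 and 4.92 at -736 bp in replicate 2, which are different sites.

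Complex III, the cytochrome bc1 complex, had no member in the thresholded list, which for 7 genes is near the 2.43% of all genes. In the pooled list it had 5 of 7 (71.4%, against 33.2% of all genes). Replicate 1 gave 3 (42.9%), the same share as the 42.9% of all genes. Replicate 2 gave 5 (71.4%, against 41.8% of all genes). The strongest pooled ones were at 2 of the 3 genes for the core 2 protein, ucr-2.2 (28.5, at -232 bp) and ucr-2.1 (25.9, at -312 bp), both on chromosome X. The ucr-2.1 summit was nearer to the start of the divergent gene nmat-1 (-74 bp). With rank 1028 in the pooled list, ucr-2.2 was the member just outside the threshold, and nduf-2.2 followed with rank 1082. Just inside it were cox-5B (rank 841), nuo-1 (770) and sdha-1 (722). In replicate 1 ucr-2.2 had 14.5 and in replicate 2 it had 12.2. The third paralog, ucr-2.3, had no promoter peak in any list, and neither did ucr-1, which encodes the other core protein. The Rieske iron-sulfur gene isp-1 had 15.7 at -278 bp, nearer to the start of islo-1, with 13.4 in replicate 2 and no promoter peak in replicate 1. The cytochrome c1 gene cyc-1 had 15.3 at -279 bp, and the small subunit gene ucr-11 had 10.2.

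The soluble carrier cytochrome c is encoded by cyc-2.1 and cyc-2.2. Here cyc-2.1 had a pooled promoter peak of 24 at -72 bp from one of its starts, with 9.31 and 10.9 in replicates 1 and 2, whereas cyc-2.2 had none in any list.

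Complex IV, the cytochrome c oxidase, had the most thresholded peaks, at 3 of 7 subunit genes (42.9%, against 2.43% of all genes). Pooled ones were at 6 of 7 (85.7%, against 33.2% of all genes). The peak of cox-5A (III, 12905023 to 12905342, intergenic) was the strongest of all members, with a pooled signal of 46.7 at -308 bp and with 14.6 and 26.6 in replicates 1 and 2. It was in no other gene's window. The peak of cox-6B (III, 2785891 to 2786210) had 43.8, with 15.2 and 28 in replicates 1 and 2. It lay at -151 bp from the downstream start of cox-6B, within an intron of its longest transcript, and it was also in the windows of Y71H2AM.20 (-103 bp) and of nduc-2 (-801 bp), a complex I subunit gene outside the symbol rule. With peaks given to the nearest start only, or with the outermost start only, cox-6B had no thresholded promoter peak. The peak of cox-5B (I, 9788580 to 9788899) lay at 15 bp, inside an untranslated exon, with a pooled signal of 31.2. This peak ranked 841 in the pooled list, just inside the threshold. In replicate 1 it had 8.52 and in replicate 2 17.5, and replicate 2 held a second, stronger promoter peak of cox-5B at -846 bp (20.6). The remaining subunit genes had weaker peaks: cox-6C 13.8, cox-4 12 and cox-7C 9.69 in the pooled list, the last inside the coding sequence of F26E4.4. The cox-6C summit was nearer to the start of grld-1 (-27 bp). The cox-4 peak overlapped no peak of replicate 2, and the cox-7C peak none of replicate 1. For cox-6A there were relaxed peaks alone, with 6.67 at -790 bp in replicate 1 and 8.67 at -283 bp in replicate 2, again at different sites.

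The 8 assembly factors of complex IV, which insert haem and copper or guide subunits together, had no thresholded promoter peak. For 8 genes this is near the 2.43% of all genes. In the pooled list 4 of 8 (50%) had one, against 33.2% of all genes. Both replicate lists gave shares below those of all genes. They were 2 of 8 (25%, against 42.9%) in replicate 1 and 3 of 8 (37.5%, against 41.8%) in replicate 2. The 4 pooled ones were cox-10, for haem synthesis, with 12.8, cox-17, a copper chaperone, with 10.6, cox-16 with 9.24 and cox-14 with 8.73. Their median of 9.92 was close to the lower end of the list, against 21.4 for the 26 subunit and cytochrome c genes with a pooled peak and 12.5 for all genes with one. The copper insertion factor gene cox-11 had a relaxed peak in replicate 1 alone (5.38), and cox-15, cox-18 and cox-19 had none.

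Complex V, the ATP synthase, had a pooled promoter peak at all 5 members, against 33.2% of all genes. A thresholded one was at 1 of the 5 (20%, against 2.43% of all genes). This gene was atp-3, which encodes the oligomycin sensitivity conferral protein. The atp-3 peak (I, 5429798 to 5430117, intergenic) had 45.2 at -50 bp, with 22.6 in replicate 1 and 19 in replicate 2. It was shared with the divergent gene F27C1.2, whose start lay farther away (-199 bp). The catalytic core genes atp-1 (alpha) and atp-2 (beta) had pooled signals of 25.1 at 10 bp and 24.4 at -184 bp. In replicate 1 these had 11.2 and 11.7, and in replicate 2 they had 9.04 and 13.5. The stalk genes atp-4 and atp-5 were lower, with 13.3 and 9.07 and −log10 q-values of 0.433 and 0.041. The atp-4 summit lay in an untranslated exon of alh-4. The atp-5 peak was close to the lowest signal of the pooled list, 8.57, and overlapped no peak of replicate 2. Its summit, at -243 bp, was nearer to the start of lmtr-3 (-76 bp).

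**Figure D2:**
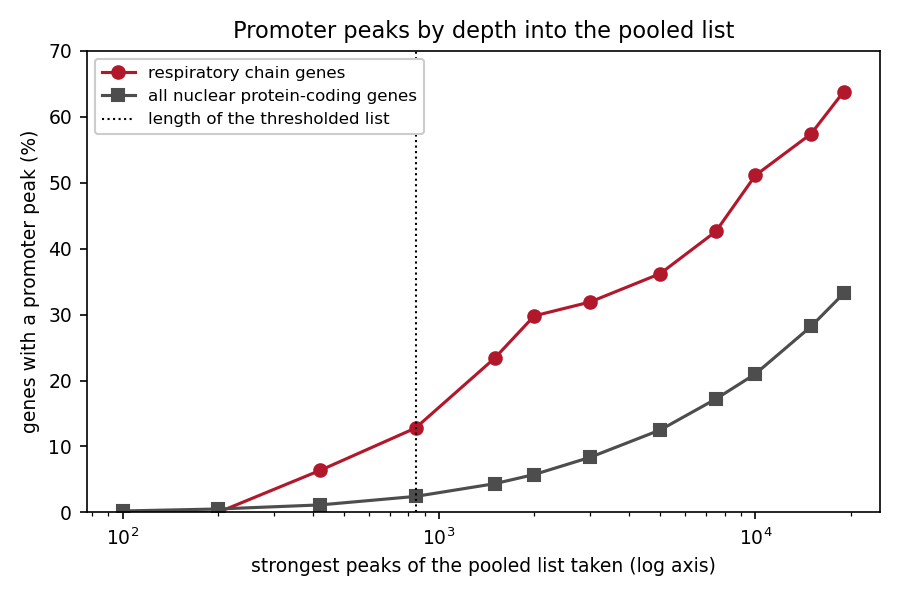
Share of genes with a promoter peak as more of the strongest pooled peaks are taken (log axis), for the 47 respiratory chain genes and for all 19973 genes. The members' share was 0 among the 200 strongest peaks and above that of all genes at each of the 10 larger numbers of peaks plotted.

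None of the members' promoter peaks was among the 200 strongest of the pooled list, where 104 genes (0.521%) had one. At 421 peaks the share was 6.38% of members against 1.14% of all genes, and at 2000 peaks, down to a signal of 21, it was 29.8% against 5.75%. The ratio of the shares was between 5.18 and 5.59 at the 4 sizes from 421 to 2000 peaks, and it was 1.92 over the whole list. Members with a pooled peak had a median signal of 17.6, against 12.5 for all genes with one. Counting genes without a peak at 0, the median was 11.3 for members and 0 for all genes. The authors' −log10 q-value was at least 1 at 15 of the 30 member peaks (50%), against 27.8% over all genes with a pooled peak. These 15 ran from cox-5A down to nduf-6 at 1.71, and the other 15, from isp-1 at 0.82 down to cox-14 at 0.0254, had the weak q-values of a relaxed list.

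**Figure D3:**
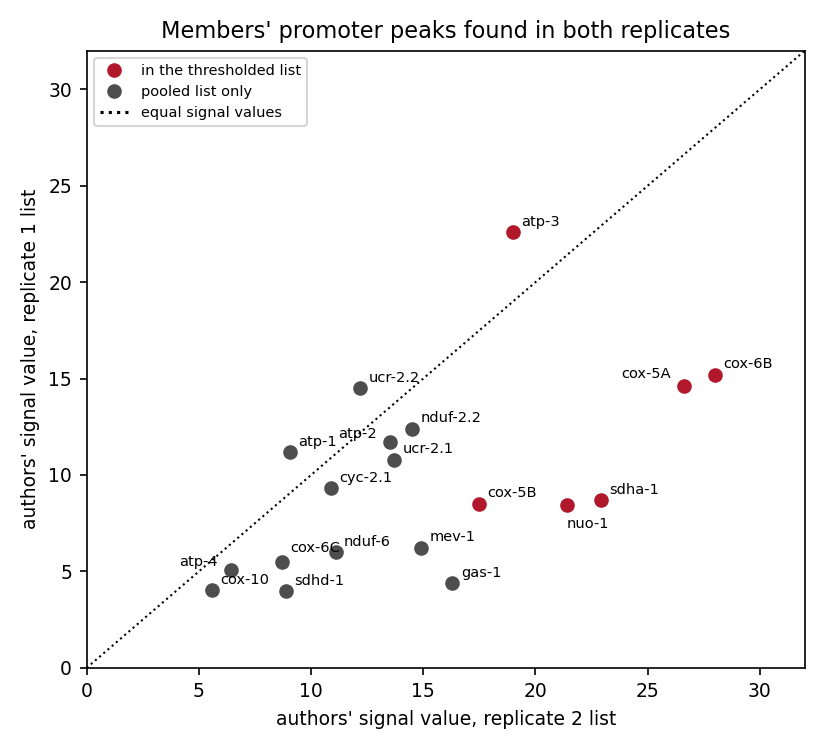
Signal in replicate 1 (vertical) and replicate 2 (horizontal) of the 19 members' pooled promoter peaks that overlapped a peak in both relaxed lists, with the line of equal values. The peaks of atp-3, ucr-2.2 and atp-1 lie above the line, and the other 16 below it.

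The order of the members differed between the replicates, with atp-3 first in replicate 1 and cox-6B first in replicate 2. Signal was higher in replicate 1 at 3 of the 19 member peaks found in both replicates (15.8%), as it was at 19.1% of all 3515 such promoter peaks. These 3 were atp-3, ucr-2.2 and atp-1. The median ratio of replicate 1 to replicate 2 was 0.632 for members and 0.656 for all such peaks, on scales that are not stated to be shared. Among the 843 strongest peaks of replicate 1 alone, 4 members (8.51%) had a promoter peak, against 2.44% of all genes, and they were atp-3, cox-5A, cox-6B and ucr-2.2. Among the 843 strongest of replicate 2 alone there were also 4 (8.51%), against 2.37% of all genes, and they were cox-5A, cox-6B, nuo-1 and sdha-1. Both sets of strongest peaks thus shared cox-5A and cox-6B (4.26% of members, against 1.23% of all genes), whereas cox-5B was in neither.

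The median offset of the members' 30 strongest pooled promoter peaks was -278 bp, near the -288 bp over all genes with a pooled peak. Of the 30, 21 (70%) were 0 to 500 bp upstream, against 56.9% over all genes with a pooled peak. By annotation 19 of the 30 summits were intergenic, 6 in introns, 4 in exons outside the coding sequence and 1 in coding sequence. These locations were not counted over all genes, so they do not set the members apart. The peak was shared with the window of another gene at 20 of the 30 members (66.7%), against 28.2% of all genes with a pooled peak, and the member's own start was the nearest at 18 (60%), against 83.3%. When a peak counted only for the gene with the nearest start, the pooled list gave 18 members (38.3%), against 28.2% of all genes, and the replicate 2 list gave 17 (36.2%), against 36%. Respiratory chain genes lay close to their neighbours. Of the 47, 31 (66%) had another protein-coding gene within 500 bp upstream, against 33.7% of all genes, a distance chosen after the data had been seen. It was measured from the outermost start of each gene, whereas promoter peaks were taken at any transcript start. By its outermost start cox-6B had no such neighbour, although its peak lay at a downstream start with the start of Y71H2AM.20 close by. Which gene of a pair a shared peak serves was not tested.

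**Figure D4:**
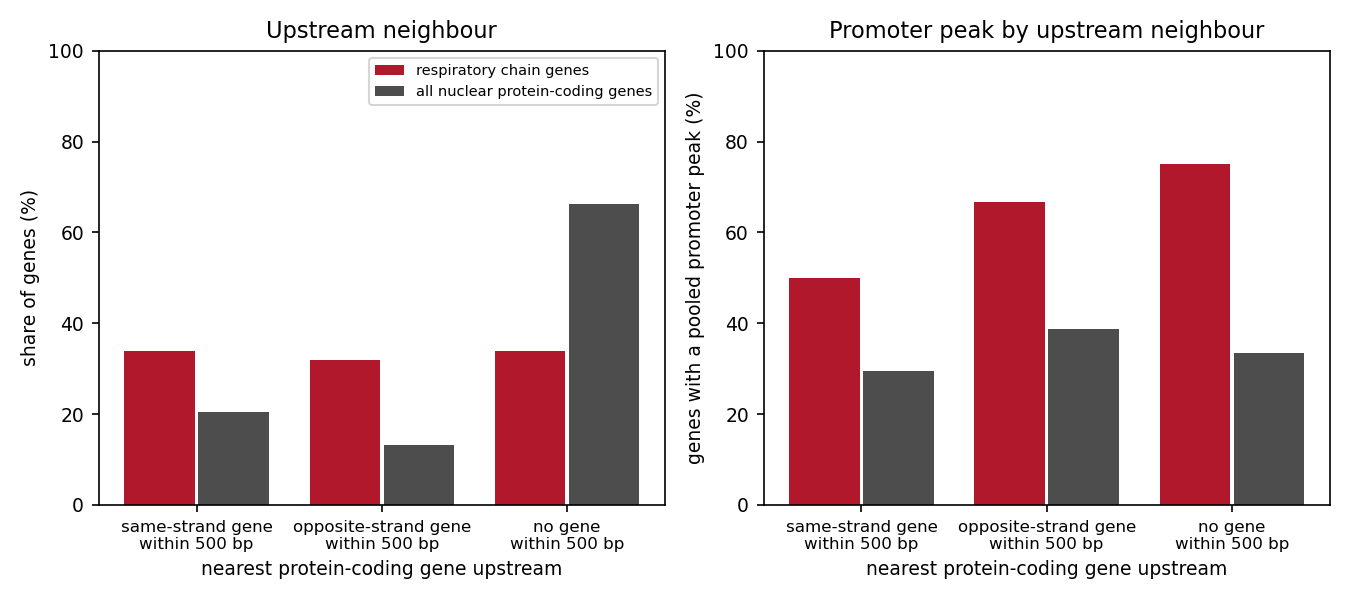
Left, share of genes by the nearest protein-coding gene upstream, within 500 bp on the same strand, within 500 bp on the opposite strand, or farther away. Distances run from the outermost start of each gene. Right, share of each class with a pooled promoter peak, for the respiratory chain genes (50, 66.7 and 75%) and all nuclear protein-coding genes (29.4, 38.7 and 33.4%).

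All 16 members with no gene within 500 bp upstream of their outermost start had a promoter peak in at least 1 of the 4 lists. Of all genes of that class, 38.8% had none. The 10 members without a promoter peak in any list were thus among the 31 with a close neighbour. Their share was 37.5% of the 16 members with a same-strand neighbour, against 40.2% of all such genes, and 26.7% of the 15 with an opposite-strand one, against 36.1%. Over all genes the share without a peak was similar in the 3 classes, and no test was made. On the same strand this neighbour was 103 bp away for nuo-4, 105 bp for nuo-5, 100 bp for cox-15, 111 bp for cox-18, 96 bp for cox-19 and 238 bp for sdha-2. For cox-15 it was cchl-1, which encodes the enzyme that attaches haem to cytochrome c, and for sdha-2 it was the complex I subunit gene ndua-13. Whether these genes are transcribed together with their neighbours was not tested. The other 4, nuo-6, ucr-1, ucr-2.3 and cyc-2.2, had a gene on the opposite strand within that distance or overlapping them.

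Words of known homeodomain and GATA sites were searched at the member summits. The homeodomain word TGACAG, searched on both strands within 50 bp of the summit, was present at 1 of the 30 strongest pooled promoter summits of members (3.33%), that of atp-3, where it began 16 bp from the summit, against 5.7% of the 6943 pooled promoter summits. In the thresholded list it was at 1 of 6 member summits (16.7%), against 20% of 425. TGATTGAC, a Pbx with Meis word that ends in the first letters of TGACAG, was at 0 of 30 against 0.792%. With so few member summits, the counts of both words are near the shares over all promoter summits. TGATAA, the GATA word, was at 0 of 30 against 15.9%. A missing match says only that these letters are not in these windows. In promoters from 250 bp before to 50 bp after the gene start, TGACAG was in 2 of 47 members (4.26%) against 9.68% of all genes, and TGATAA in 8 (17%) against 30.2%. The median share of G and C was 42.6% for the 30 member summits against 35.6% for all pooled promoter summits, and 50.5% against 42.6% in the thresholded list.

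The words in capitals above were 2 of 9 tried after the member sequences had been read, so their shares are descriptions of those sequences. GCGC was at 5 of 6 thresholded member summits, against 25.6% of 425 thresholded promoter summits, and at 10 of 30 pooled ones (33.3%) against 15.9%. GACGC was at 5 of 6 against 23.1% and at 9 of 30 (30%) against 10.9%. Both words consist mostly of G and C, and the part of the higher GC share in these counts was not tested.

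Other genes of oxidative phosphorylation, 27 genes listed outside the symbol rule, had 1 thresholded promoter peak (3.7%, against 2.43% of all genes) and 15 pooled ones (55.6%, against 33.2%). In the replicate 1 list 11 had one (40.7%, against 42.9% of all genes). In that of replicate 2 it was 14 (51.9%, against 41.8%). The thresholded share rests on 1 gene and is near that of all genes. This gene was asb-2, which encodes subunit b of the ATP synthase, with 35.5 at -294 bp and with 12.1 and 21.2 in replicates 1 and 2. Next in the pooled list were let-721, which encodes the electron transfer flavoprotein dehydrogenase (27.2, at -838 bp), coq-1 of ubiquinone synthesis (22.6, at -141 bp) and the ATPase inhibitor gene mai-1 (20.2, at -183 bp). Of the adenine nucleotide carriers, ant-1.1 had 12.2 and ant-1.2 had 13.2.

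The shares of the respiratory chain genes with a thresholded and with a pooled promoter peak, 12.8% and 63.8%, were set beside those of 3 other lists of highly conserved complexes. The 81 cytosolic ribosomal protein genes had 21% and 81.5%, and the 20 vacuolar ATPase genes had 20% and 45%. The 70 mitochondrial ribosomal protein genes, whose products serve the same organelle, had 1.43% and 38.6%. In both peak lists the respiratory chain genes lay between the cytosolic and the mitochondrial ribosomal protein genes, and no test of these differences was made.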

How the data were processed

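Each of 2 ChIP-seq replicates of 1 group gave a peak list, and 2 lists were made from both. According to README files deposited beside them, an alignment and a control gave every replicate list, the 2 alignments with a control gave the pooled list, and all 3 of these gave the thresholded list. Which aligner and caller were used is not given in the sources used here. As deposited, the signal value in the lists is the authors' peak strength, and the −log10 q-value, also deposited by the authors, was 3.4 in all 843 thresholded peaks. Coordinates are ce11, 1-based. The ce10 lists were not used.

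Summits were assigned to promoter windows of Ensembl 115 (WBcel235) transcripts with Python 3.11.15 and numpy 2.4.6, and figures were drawn with matplotlib 3.10.9. A peak in several windows counted for each gene. Replicate values of a pooled peak are those of the strongest overlapping peak (at least 1 bp). Shares have exact Clopper-Pearson intervals from scipy 1.17.1. The assignment was tested on simulated summits.

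Members and lists were chosen with earlier results of these data known, so no test was made. Named genes were every member with a thresholded promoter peak, the 3 strongest in the pooled list of each complex, the members without any peak and their paralogs; the others were added so that each member is accounted for. Alternatives covered windows, overlap, nearest start, gene starts, the stronger part of each list and each replicate alone.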

Additional observations from a re-analysis of the deposited data

How the results depend on the processing

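No paired analysis was possible because the series holds 1 group. Of the alternatives for the count of 6 thresholded members, windows, overlap, nearest start, gene starts, subunits alone and the added complex I genes gave 5 to 8. Subunits and cytochrome c alone gave 6 of 39 (15.4%, against 2.43% of all genes). The 8 with the added complex I genes counts the peak shared by cox-6B and nduc-2 for both genes, and its share was not computed. With the nearest start and with gene starts the member lost was cox-6B. Shares were 12.8% of members against 1.73% of all genes with the narrower window, and 17% against 3.41% with the wider one. They were 14.9% against 2.68% with overlap, 10.6% against 2.02% with the nearest start and 10.6% against 2.16% with gene starts. The count was 3 with the 421 strongest peaks (6.38% against 1.14%). It was also 3 when only peaks in the window of 1 gene counted, for which no share of all genes was computed. Both counts of 3 rest by construction on fewer peaks. The strongest thresholded peak was shared with another gene at 3 of the 6 members (50%), against 31.5% of all genes with one. With replicate 1 or replicate 2 left out the count of members was 4 (8.51%), against 2.37% and 2.44% of all genes. With the nearest start alone, the pooled count was 18 (38.3% of members, against 28.2% of all genes) and the replicate 2 count 17 (36.2% of members, against 36% of all genes). The median pooled signal of 17.6 was 21.3 with the narrower window, 20.4 with the wider one and 11.3 with genes without a peak at 0. Without replicate 1 it was 10.1 and without replicate 2 it was 6.75, on lists with their own scales. Peak calls rest on reads whose depth is unknown, so weak peaks near the lower end of a list are the least certain. The settings with added complex I genes and with peaks of 1 gene were chosen after seeing the data.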

Other observations

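Complex I subunit genes with the newer symbol stems ndua, ndub, nduc, nduv, ndus and ndab, together with lpd-5, are not caught by the symbol rule. Of these 22 genes, 2 (9.09%) had a thresholded promoter peak, against 2.43% of all genes, and 8 (36.4%) a pooled one, close to the 33.2% of all genes. The thresholded ones were nduc-2, through the peak it shares with cox-6B (43.8), and ndua-8 with 32.1 at -255 bp and with 12 and 17.2 in replicates 1 and 2. The next in the pooled list was ndab-2, an acyl carrier protein gene, with 24.2 at -915 bp, where replicate 1 had the higher value (16.4) and replicate 2 the lower (9.82). This list was added after the data had been seen.

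Peaks were also called on mitochondrial DNA, which encodes partners of these proteins. The thresholded list held 28 peaks there, with signals from 32.6 to 514 and a median of 119, and 10 of the 12 protein-coding genes held a summit. This count is not comparable with those at nuclear promoters. No share of the mitochondrial DNA under peaks was computed, so the count does not set these genes apart from the rest of that DNA. Mitochondrial DNA is present in many copies per cell, and the part of copy number in these values was not tested.

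A pooled summit lay within the gene body at 15 members (31.9%), against 31.8% of all genes. Of these, 5 had no pooled promoter peak: cox-11, nduf-7, nuo-4, nuo-5 and ucr-2.3. Genes with a summit in the body and no promoter peak made up 10.6% of members, against 15.4% of all genes.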
